A study of Mus musculus with 29 samples.

Results

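Gene expression in Dnmt3a-mutant MPP3 of mouse bone marrow was compared with that in control MPP3, using every library labelled MPP3: 4 mutant and 3 control libraries of the 29 in the series. All came from young C57BL/6 mice, 6 weeks after pIpC, the synthetic double-stranded RNA that is used to switch on Mx1-Cre. The labels call one genotype "Dnmt3a mut" and the other control, and they give neither the allele nor the Cre driver, nor whether the controls carried a Cre. The submitters' design text counts 3 mutant MPP3 samples, whereas 4 are listed and all 4 were used. The other 22 libraries are mutant and control LT-HSC, ST-HSC and MPP4 (stem cells with long-term and with short-term repopulating ability, and a progenitor class with lymphoid bias). No label states that replicates came from separate animals, so the p-values measure the spread between these samples only.

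MPP3 are multipotent progenitors of the bone marrow with a bias towards granulocytes and macrophages. They arise from haematopoietic stem cells and express primary granule genes such as Mpo at high levels. Dnmt3a encodes a methyltransferase that adds methyl groups to unmethylated CpG sites, with Dnmt3b as its close relative, while Dnmt1 copies methylation after replication. Loss or mutation of DNMT3A in blood stem cells is a frequent origin of clonal haematopoiesis and of myeloid malignancy.

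The 7 MPP3 libraries held 6418833 to 10368920 estimated counts. Levels are given as CPM, which relates counts to the library total after TMM scaling, a scaling that sets the bulk of genes to a common level. A floor of 3 counts corresponds to 0.309 to 0.543 CPM, which covers counting error only. Mutant replicate 1 stood apart from the other libraries. In it 39.7% of the tested genes lay more than 2-fold from the median of the other 6 libraries, against 8.99% to 16.7% in those libraries. It held the highest value of the 7 in 26.8% of genes and the lowest in 32.9%, where an even share would be 14.3%, and 14302 genes had a count in it against 16358 to 17560 elsewhere. Values without it are therefore given beside many of the results. Column headers carry one of 2 numbers. Control replicate 1 and mutant replicates 3 and 4 share the lower number (the first header set), and control replicates 2 and 3 and mutant replicates 1 and 2 share the higher one (the second header set). No label or header says what these numbers stand for. Differences were also computed within each set.

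**Figure D1:**
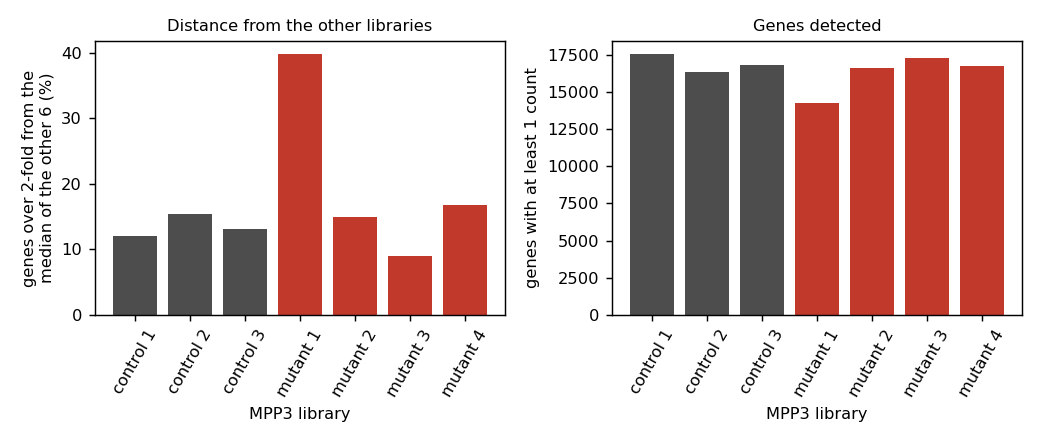
Distance of each MPP3 library from the others (left: percent of tested genes more than 2-fold from the median of the other 6 libraries) and number of genes with at least 1 count (right). Mutant replicate 1 stands at 39.7% and 14302 genes, while the other 6 libraries stand between 8.99% and 16.7% and between 16358 and 17560 genes.

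The labelled cell type was checked against markers. Mpo, the myeloperoxidase of primary granules, stood at 5407, 7626 and 6922 CPM in control replicates 1 to 3 and at 9382, 4975, 6855 and 3466 CPM in mutant replicates 1 to 4. Kit, the stem cell factor receptor of early progenitors, stood at 356, 409.6 and 370.1 CPM in the controls and at 593, 406, 472 and 460.1 CPM in the mutants. Both markers were thus high in all 7 libraries. Ly6a, which encodes the surface marker Sca-1, varied more. It stood at 69.06, 29.8 and 45.05 CPM in the controls and at 4.528, 12.95, 43.63 and 100.4 CPM in the mutants. Cd48, a further surface marker, stood at 40.93 to 75.08 CPM in the controls. It stood at 174.6 CPM in mutant replicate 1 and at 38.95 to 79.05 CPM in the other mutants. Cd34 stood at 176.7 to 381.1 CPM over the 7 libraries. Whether the sorted cells differed between libraries was not tested. Flt3, the receptor that marks MPP4, stood at 112, 93.9 and 77.0 CPM in the controls and at 51.3, 99.2, 81.2 and 84 CPM in the mutants. The libraries also held RNA of antibody-secreting cells: immunoglobulin genes took 0.534% to 4.34% of all counts, a range that is described with the immunoglobulin segments.

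Dnmt3a transcript (GENCODE M21 on GRCm38, chr12:3806007-3914443, plus strand) stood at 95.5, 118 and 119 CPM in control replicates 1 to 3 and at 217, 89.4, 94.1 and 105 CPM in mutant replicates 1 to 4. The groups overlapped, mutant replicate 1 was the highest of the 7, and the other 3 mutant libraries lay below control replicates 2 and 3. The log2 difference, mutant minus control, was 0.19 ± 0.31 (SE, 95% interval -0.49 to 0.87). Without mutant replicate 1 it was -0.20. Counts over a whole gene cannot check a point mutation or the loss of single exons, so they do not test the genotype labels. Dnmt1 stood at 216, 202 and 163 CPM in the controls and at 362, 226, 216 and 264 CPM in the mutants, a log2 difference of 0.46 ± 0.23 (SE) that is 0.28 without mutant replicate 1. Dnmt3b stood at 59.7, 55.2 and 42.4 CPM in the controls and at 55.8, 69.1, 65.1 and 86.0 CPM in the mutants, a log2 difference of 0.40 ± 0.24 (SE) that is 0.26 without control replicate 3. All 3 methyltransferases had overlapping groups, with adjusted p = 0.9998 each (edgeR quasi-likelihood test, Benjamini-Hochberg). Of the 19 tested genes of a list on DNA methylation, 10 were higher and 9 lower in the mutants and none reached an unadjusted p of 0.05. Tet2, one of the enzymes that oxidise methylcytosine, stood at 136, 117 and 151 CPM in the controls and at 63.8, 129, 126 and 90.1 CPM in the mutants, and these groups overlapped too.

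Across all genes, the question was which transcripts differ between mutant and control MPP3. Of 13572 genes tested, 0 passed an adjusted p of 0.05 in the edgeR quasi-likelihood test, which is 0% of them. DESeq2 called 2 genes and limma voom called 0. At an unadjusted p under 0.05 stood 302 genes, of which 196 were higher in mutant MPP3 (1.44% of those tested) and 106 lower (0.781%). The 4 mutant libraries lay above all 3 controls for 303 genes (2.23%) and below them for 308 (2.27%). The median log2 difference was 0.01, the median standard error 0.45 and the median half-width of the unadjusted 95% interval 0.98. In the typical gene a change under about 2-fold could thus not be told from 0, even before adjustment. Larger changes could be missed as well, since calls rest on adjusted p. Of the tested genes 1146 differed by more than 2-fold, and 0 passed. The biological coefficient of variation, the spread between replicates beyond counting noise, was 0.51 in MPP3, against 0.411 in MPP4, 0.429 in LT-HSC and 0.527 in ST-HSC. It was 0.403 in MPP3 without mutant replicate 1. As in any bulk sample, fewer cells of a type and less RNA per cell cannot be told apart.

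The smallest p belonged to the identifier ENSMUSG00000094062, which the tables used pair with no symbol and which was singled out after its values were seen. It held 221, 125 and 107 counts in control replicates 1 to 3 and 0 counts in each of the 4 mutant libraries. In CPM the controls stood at 29.5, 16.6 and 11.0, with a mean of 19.0 ± 9.47 (SD, n = 3), and against a floor of 3 counts per library the mutants were at least 49.6-fold lower. The 22 libraries of the other populations, controls included, held at most 1 count of it, and 2 of them held any. Its adjusted p was 0.0743 in the edgeR quasi-likelihood test, outside the threshold. Without mutant replicate 1 the adjusted p was 0.00813. Over all alternatives it ran from 4.87e-12 in DESeq2 to 1 without control replicate 1 or without control replicate 2.

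Since no gene passed, the 12 genes with the smallest p in each direction are described, among genes with a symbol, above 5 CPM in at least one group and outside the immunoglobulin segments. The adjusted p of each was 0.9998 in the edgeR quasi-likelihood test, so these are values and not calls. In 23 of the 24 the groups did not overlap, against 2.23% (mutants above) and 2.27% (mutants below) of all tested genes. All 24 had the same direction within both header sets, against 48.7% of all tested genes. The choice by smallest p favours both.

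Of the 12 genes higher in mutant MPP3, Vasn (GRCm38, chr16:4639941-4650802, plus strand) had the smallest p. It encodes vasorin, a membrane protein that binds TGF-beta. Its level was 4.13, 4.90 and 6.38 CPM in control replicates 1 to 3 and at 16.1, 23.0, 15.7 and 13.8 CPM in mutant replicates 1 to 4. The lowest mutant value was 13.8 and the highest control value 6.38, and the log2 difference was 1.73 ± 0.44 (SE), with 1.77 and 1.74 within the header sets. Tnfsf10 (chr3:27317028-27342427, plus strand) encodes TRAIL, a ligand of the TNF family that can trigger cell death. It stood at 40.3, 47.8 and 41.8 CPM in the controls and at 67.7, 64.1, 84.6 and 81.1 CPM in the mutants, a log2 difference of 0.78 ± 0.22 (SE), with 1.04 within the first set and 0.56 within the second set. All 4 mutant libraries again lay above the controls, by a smaller fold than for Vasn.

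Dst encodes dystonin, a large linker between cytoskeletal filaments. It stood at 39.2, 39.2 and 44.2 CPM in the controls and at 112, 74.7, 55.4 and 109 CPM in the mutants, a log2 difference of 1.10 ± 0.28 (SE). Stau2, a protein that binds double-stranded RNA, stood at 13.7, 20.4 and 22.6 CPM in the controls and at 58.7, 35.2, 34.7 and 37.7 CPM in the mutants, a log2 difference of 1.13 ± 0.33 (SE). In Stau2 the mutant replicates 2 to 4 lay close together and replicate 1 above them. Shroom4, an actin-binding protein, stood at 4.80, 5.03 and 1.34 CPM in the controls and at 34.6, 20.7, 8.69 and 9.77 CPM in the mutants. Sept1, a septin of the cytoskeleton, stood at 15.5, 16.8 and 8.13 CPM in the controls and at 43.7, 35.4, 20.7 and 35.5 CPM in the mutants. For both genes the control values of the second set spread widely, and the log2 difference was 2.31 ± 0.67 (SE) for Shroom4 and 1.33 ± 0.39 (SE) for Sept1.

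Cd79a encodes a signalling subunit of the B-cell receptor. It stood at 62.0, 44.5 and 63.0 CPM in the controls and at 147, 83.3, 86.0 and 98.2 CPM in the mutants, a log2 difference of 0.87 ± 0.26 (SE). With the level of antibody-secreting cell genes as a term in the fit the difference was 0.88. That level is mostly RNA of immunoglobulin constant genes and does not measure other B cells, whose share was not tested. Fam49a had a log2 difference of 1.24 ± 0.35 (SE) and Tmem65, a membrane protein of mitochondria, one of 1.26 ± 0.35 (SE), with 0.41 within the first set and 1.82 within the second set. Apob, the apolipoprotein of low-density lipoprotein, stood at 2.67, 2.78 and 1.95 CPM in the controls and at 20.1, 5.06, 6.10 and 13.7 CPM in the mutants. Its log2 difference was 2.18 ± 0.65 (SE), and it was 1.17 without mutant replicates 1 and 4 together. The last 2 of the 12 are uncertain by kind. Gm16536 is annotated as antisense, and no source used here says that counting used strand, so its reads cannot be told from those of the gene on the other strand. It had a log2 difference of 1.43 ± 0.44 (SE). Gm12568 is a processed pseudogene whose reads can be split with its parent gene. It stood at 0.667, 1.32 and 1.44 CPM in the controls and at 45.3, 5.77, 2.59 and 2.61 CPM in the mutants, and its log2 difference of 3.58 was 1.66 without mutant replicate 1.

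Of the 12 genes lower in mutant MPP3, Aldh1a1 (chr19:20492715-20643465, plus strand) had the smallest p. It encodes an aldehyde dehydrogenase that makes retinoic acid from retinal. It stood at 19.1, 15.5 and 14.2 CPM in control replicates 1 to 3 and at 2.35, 4.94, 6.31 and 6.52 CPM in mutant replicates 1 to 4. All 4 mutant libraries lay at or under 6.52 CPM and all 3 controls at or above 14.2, and the log2 difference was -1.68 ± 0.48 (SE), with -1.54 and -2.04 within the header sets. Xdh (chr17:73883895-73950196, minus strand) encodes xanthine dehydrogenase, the enzyme of purine breakdown that makes urate. It stood at 10, 4.90 and 13.5 CPM in the controls and at 1.27, 1.41, 3.83 and 1.30 CPM in the mutants, a log2 difference of -2.26 ± 0.67 (SE). Uap1, an enzyme that makes UDP-N-acetylglucosamine, stood at 34.5, 28.1 and 31.9 CPM in the controls and at 18.8, 9.30, 18.3 and 15 CPM in the mutants, a log2 difference of -1.04 ± 0.35 (SE). The control values of Uap1 lay close together and those of Xdh did not.

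Mcu encodes the pore of the mitochondrial calcium uniporter. It stood at 19.6, 18.9 and 38.2 CPM in the controls and at 10.7, 6.59, 14.0 and 10.8 CPM in the mutants, a log2 difference of -1.28 ± 0.42 (SE). Mtfp1, a protein of mitochondrial fission, stood at 6.53, 7.02 and 12.1 CPM in the controls and at 0.362, 0.706, 3.83 and 2.39 CPM in the mutants, a log2 difference of -2.20 ± 0.79 (SE). The mutant replicate 1 value of Mtfp1 is under its floor of 3 counts. Taf5, a subunit of the general transcription factor TFIID, stood at 39.5, 39.7 and 38.1 CPM in the controls and at 12.5, 24.5, 26.6 and 16.4 CPM in the mutants. Its 3 control values were nearly equal, and the log2 difference was -0.96 ± 0.33 (SE). Prune1, a phosphatase of inorganic polyphosphate, had a log2 difference of -1.21 ± 0.39 (SE) and Fgl2, a fibrinogen-like protein of immune cells, one of -0.98 ± 0.33 (SE). The Fgl2 groups nearly touched, with the highest mutant value at 30.5 CPM and the lowest control value at 31.3 CPM.

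Siglech, a lectin of plasmacytoid dendritic cells, stood at 20.4, 11.9 and 20.6 CPM in the controls and at 3.26, 10.2, 2.69 and 7.17 CPM in the mutants, a log2 difference of -1.59 ± 0.55 (SE). The uncharacterised gene 2310022B05Rik had a log2 difference of -1.21 ± 0.43 (SE). Gm27162 (chr9:32904937-32928966, minus strand), a long intergenic RNA, was the most abundant gene of the 24. It stood at 312, 285 and 328 CPM in the controls and at 118, 59.3, 40.5 and 258 CPM in the mutants, a log2 difference of -1.37 ± 0.49 (SE). Mutant replicate 4 lay near the controls and the other 3 mutants far below them. Without mutant replicates 1 and 4 the log2 difference of Gm27162 was -2.63, with adjusted p = 0.0127 in the edgeR quasi-likelihood test, while in the other alternatives the adjusted p was 0.247 to 1. Atp6v0c-ps2, a processed pseudogene, was the only one of the 24 whose groups overlapped, with control replicate 1 at 12.3 CPM and mutant replicate 2 at 13.4 CPM.

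**Figure D2:**
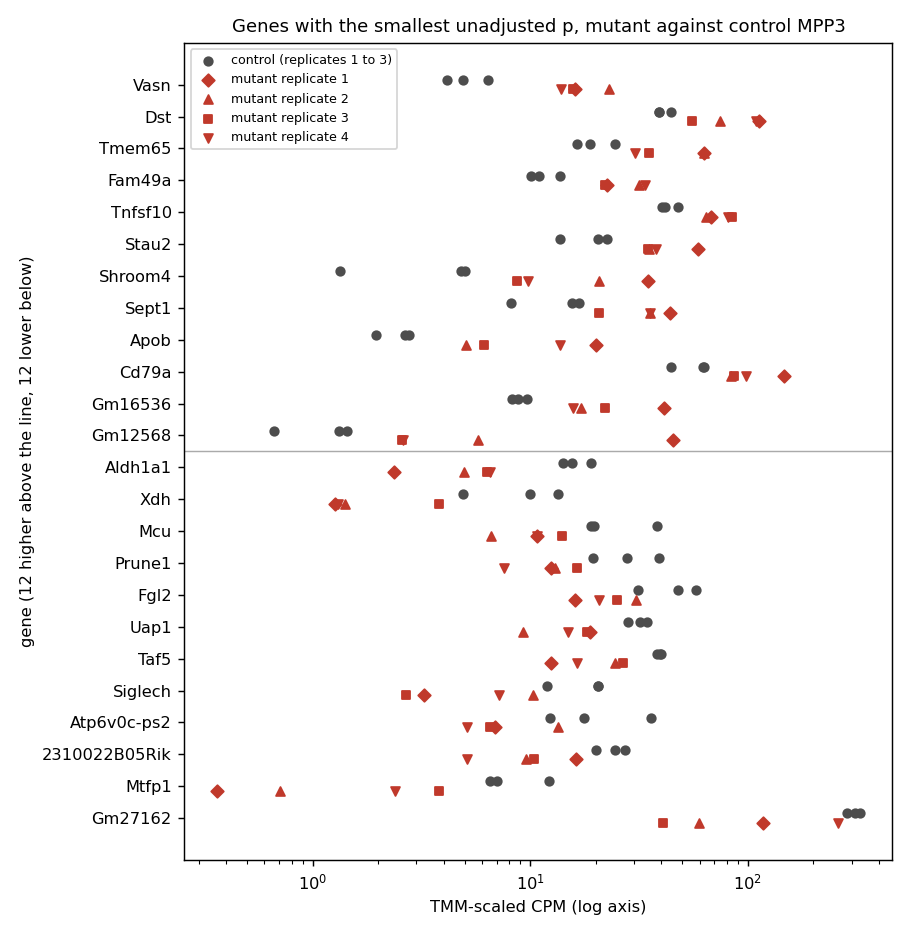
Level in CPM (log axis) of the 24 genes with the smallest unadjusted p, in 3 control (grey circles) and 4 mutant (red, 1 symbol per replicate) MPP3 libraries, with the 12 higher genes above the line and the 12 lower genes below it. The grey and red points are apart for 23 of the 24 genes; Atp6v0c-ps2 overlaps.

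Whether the mutant difference in MPP3 is unlike that in the other populations was tested in a fit of all 29 libraries, over 15915 genes. The fit took the libraries as independent, although the sample numbers in the descriptions recur across populations. For the MPP3 difference against the mean of the other 3 populations, 0 genes passed an adjusted p of 0.05 in the edgeR quasi-likelihood test (0%), limma voom called 2 and DESeq2 called 21. At an unadjusted p under 0.05 stood 753 genes (4.73%). Of the 12 genes higher in mutant MPP3, 8 were also higher in mutant LT-HSC, 9 in ST-HSC and 5 in MPP4. Their median log2 difference was 1.30 in MPP3, 0.22 in LT-HSC, 0.12 in ST-HSC and -0.04 in MPP4. Of the 12 lower genes, 5, 6 and 5 were higher in mutant LT-HSC, ST-HSC and MPP4, with medians of -0.07, 0.10 and -0.20 against -1.33 in MPP3. These genes were chosen for their MPP3 values, so the MPP3 median is large by choice. Vasn differed by 1.74 ± 0.48 (SE) in MPP3, 0.41 ± 0.45 in LT-HSC, 0.56 ± 0.46 in ST-HSC and -0.14 ± 0.42 in MPP4. The Dnmt3a differences were 0.19 ± 0.25 (SE), 0.08 ± 0.25, -0.06 ± 0.25 and 0.21 ± 0.23 in the same order, all within their errors of 0.

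Against LT-HSC alone, 0 genes passed and 963 stood at an unadjusted p under 0.05, with a smallest adjusted p of 0.0908 in the edgeR quasi-likelihood test. The genes nearest the threshold, named after their values were seen, were ones for which the MPP3 difference was small. Igsf6, an immunoglobulin superfamily protein of myeloid cells, differed by 0.44 ± 0.73 (SE) in MPP3 and by -5.74 ± 0.98 in LT-HSC. Ccl3, a chemokine, differed by 0.28 ± 0.69 (SE) in MPP3 and by -5.33 ± 0.90 in LT-HSC. Mpo differed by -0.11 ± 0.70 (SE) in MPP3 and by -5.33 ± 0.91 in LT-HSC, with adjusted p = 0.134 for the difference between them in the edgeR quasi-likelihood test. Against ST-HSC and MPP4 no gene passed either, with smallest adjusted p of 0.525 and 1 (edgeR quasi-likelihood test) and 901 and 618 genes at an unadjusted p under 0.05.

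**Figure D3:**
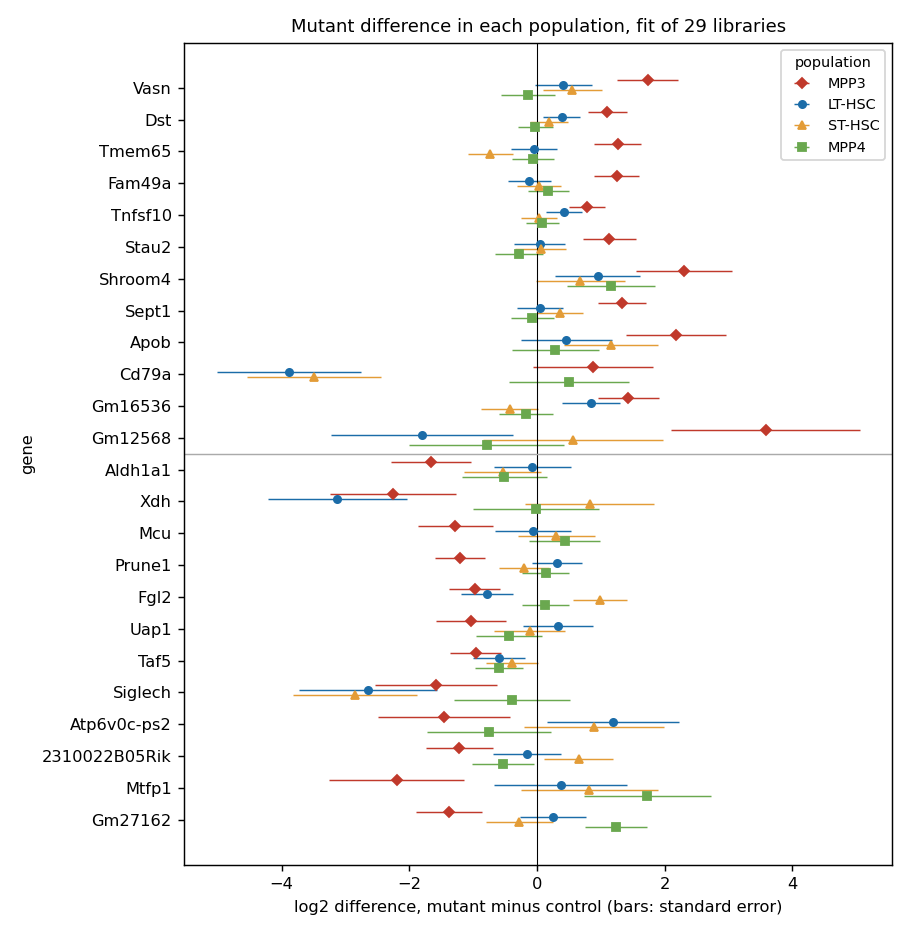
Log2 difference, mutant minus control, with its standard error, of the 24 genes in MPP3 (red), LT-HSC (blue), ST-HSC (orange) and MPP4 (green), from the fit of 29 libraries. The genes were chosen for their MPP3 values, whose medians are 1.30 and -1.33; the medians in the other populations lie between -0.20 and 0.22.

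Gene groups of progenitor identity were read next, through 28 lists. No member of any list passed an adjusted p of 0.05 in the edgeR quasi-likelihood test, and 14 of the 28 list medians lay above the median of all genes, 0.01. Across all tested genes 51.2% were higher in the mutants.

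Of the genes of the myeloid programme that defines MPP3, the primary granule list had 5 of 25 members higher and 20 lower, with a median of -0.14 and none at an unadjusted p under 0.05. Ctsg, the granule protease cathepsin G, stood at 169, 199 and 220.3 CPM in the controls and at 156, 157, 221 and 124 CPM in the mutants. Elane, neutrophil elastase, stood at 535, 796 and 893 CPM in the controls and at 1013, 546, 773 and 364 CPM in the mutants. The groups overlapped for both proteases, and the summed level of the list ran from 8938 to 12360 CPM in the controls and from 6498 to 14330 CPM in the mutants. The list median was -0.28 without mutant replicate 1, -0.24 without control replicate 1 and 0.03 without mutant replicate 4. Among 23 myeloid transcription factors 11 were higher and 12 lower. Spi1, which encodes the myeloid master factor PU.1, stood at 41.1, 49.1 and 59.1 CPM in the controls and at 76.3, 51.4, 64.9 and 76.0 CPM in the mutants. Irf8, a factor of monocytes and dendritic cells, stood at 41.9, 48.5 and 68.6 CPM in the controls and at 29.5, 36.4, 47.9 and 58.4 CPM in the mutants. The log2 difference was 0.43 ± 0.24 (SE) for Spi1 and -0.30 ± 0.30 (SE) for Irf8, and the groups overlapped for both. With control replicate 3 left out the Irf8 difference was -0.07, and with mutant replicate 1 left out -0.16.

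Late neutrophil genes, which belong to maturing granulocytes and not to MPP3, had 14 of 17 members higher with a median of 0.36, but the mutant libraries were far apart. Their summed level was 386, 317 and 276 CPM in control replicates 1 to 3 and 517, 776, 156 and 96.9 CPM in mutant replicates 1 to 4. The list median was -3.04 within the first set and 1.24 within the second set, so the pooled direction did not hold within both, it was 0.085 without mutant replicate 1 and -0.81 without mutant replicate 2, and it was -0.83 as a difference of mean log2 CPM. Camp, a secondary granule peptide, was at 0 in mutant replicates 3 and 4 and at 5.80 and 34.7 CPM in mutant replicates 1 and 2. Padi4, a peptidylarginine deiminase of neutrophils, was the one member at an unadjusted p under 0.05, with 9.87, 26.3 and 7.2 CPM in the controls and 44.4, 34.3, 26.4 and 19.0 CPM in the mutants.

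The erythroid list had 23 of 25 members lower in mutant MPP3, the most one-sided of the 28, with a median of -0.34 and none at an unadjusted p under 0.05. Epor, the erythropoietin receptor, stood at 12.3, 11.0 and 7.30 CPM in the controls and at 6.70, 4.94, 7.24 and 6.08 CPM in the mutants, so its groups did not overlap, by a narrow margin. Gata1, the erythroid master factor, stood at 11.7, 20.4 and 9.56 CPM in the controls and at 11.6, 1.53, 11.0 and 4.02 CPM in the mutants. The summed level of the list was 2807, 3409 and 2416 CPM in the controls and 3167, 2967, 1356 and 2123 CPM in the mutants, and these sums overlapped. The list median was -0.86 within the first set and -0.16 within the second set, and it ran from -0.56 without mutant replicate 1 to -0.17 without control replicate 2 over the left-out libraries. Hba-a1 and Hba-a2 are near-identical globin genes, so their 2 values are not independent. In the megakaryocyte list 10 of 14 tested members were lower, with a median of -0.14, and Pf4, platelet factor 4, had at most 12 counts in any library and was not tested.

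Stem-cell genes had 15 of 23 members higher, with a median of 0.26, and none at an unadjusted p under 0.05. Mecom, a factor needed for stem-cell maintenance, stood at 21.7, 28.5 and 22.1 CPM in the controls and at 35, 35.8, 27.6 and 31.4 CPM in the mutants, a log2 difference of 0.43 ± 0.29 (SE). Gata2 stood at 63.6, 104 and 68.4 CPM in the controls and at 139.6, 79.9, 89.6 and 100.3 CPM in the mutants, a log2 difference of 0.38 ± 0.26 (SE) that became 0.19 when mutant replicate 1 was left out, and 0.24 or 0.64 when control replicate 1 or 2 was. Hlf, a factor of stem cells, stood at 199.6, 481 and 245 CPM in the controls and at 403, 379.5, 323 and 372 CPM in the mutants. For each of the 3 factors control replicate 2 was the highest control and lay within or above the mutant values. The list median was 0.40 within the first set and -0.06 within the second set, and it was 0.03 without mutant replicate 4.

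Lymphoid priming genes had 23 of 28 members higher, with a median of 0.22, and 1 higher at an unadjusted p under 0.05, against 1.44% of all genes. Foxo1, a factor of early B-cell development, stood at 45.3, 35 and 37.3 CPM in the controls and at 44.6, 53.3, 79.0 and 69.6 CPM in the mutants, a log2 difference of 0.65 ± 0.27 (SE). Dntt, the polymerase that adds bases at antigen-receptor joins, stood at 24.7, 30.7 and 19.6 CPM in the controls and at 38.0, 28.8, 42.2 and 34.5 CPM in the mutants, a log2 difference of 0.52 ± 0.30 (SE). Rag1, a subunit of the recombinase, stood at 8, 10.2 and 5.55 CPM in the controls and at 17.9, 14.0, 10.8 and 5.86 CPM in the mutants. All 3 groups overlapped. Of 15 tested mature B-cell genes 12 were higher, with a median of 0.31, and 3 stood at an unadjusted p under 0.05, against 1.44% of all genes. They were Cd79a, Fcmr and Cd37. Cd37, a tetraspanin of B cells, stood at 85.2, 63.3 and 79.9 CPM in the controls and at 98.5, 98.7, 107 and 116 CPM in the mutants, without overlap. Fcmr, the IgM Fc receptor, stood at 10.4, 9.54 and 5.76 CPM in the controls and at 27.0, 13.3, 10.1 and 25.9 CPM in the mutants, with overlap. The mature B-cell median was -0.01 within the first set and 0.32 within the second set, and it was 0.09 without mutant replicate 4.

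Dendritic-cell genes had 10 of 17 members lower, with a median of -0.26, and 2 lower at an unadjusted p under 0.05, against 0.781% of all genes. Over the left-out libraries the list median ran from -0.51 (mutant replicate 3) to -0.18 (control replicate 1). Besides Siglech this was Clec9a, a lectin of cross-presenting dendritic cells, at 7.73, 3.97 and 2.78 CPM in the controls and 0.725, 0.824, 0.827 and 2.06 CPM in the mutants. Neither gene's groups overlapped, and other members went the other way, such as Itgax with a log2 difference of 0.78. Single members of other lists also stood at an unadjusted p under 0.05. Il18r1, a chain of the interleukin-18 receptor, stood at 7.07, 11.3 and 5.35 CPM in the controls and at 0.362, 0.588, 4.34 and 2.28 CPM in the mutants. Fn1, fibronectin, stood at 51.1, 13.4 and 23.1 CPM in the controls and at 16.7, 6.94, 0.310 and 0.652 CPM in the mutants. Il18r1 was below the controls in all 4 mutants, and Fn1 was near 0 in mutant replicates 3 and 4 only. Pmaip1, which encodes the apoptosis protein Noxa, stood at 3.47, 2.78 and 5.04 CPM in the controls and at 1.09, 1.53, 0.931 and 0.869 CPM in the mutants. Sesn2, a stress-induced sestrin, was at 48.0 CPM in mutant replicate 1 against 1.45 to 7.71 CPM in the other mutants, and both belong to the p53 target list. Gar1, of the small nucleolar RNA complex, stood at 28.9, 75.4 and 54.7 CPM in the controls and at 31.7, 28.8, 33.3 and 26.2 CPM in the mutants. Prg3, an eosinophil granule protein, stood at 8, 6.75 and 0.309 CPM in the controls and at 0.181, 1.65, 1.03 and 0.652 CPM in the mutants. The groups overlapped for Gar1, Prg3, Sesn2 and Fn1 and did not for Il18r1 and Pmaip1.

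Lists of cell cycle, metabolism and signalling had medians from -0.10 to 0.17, beside 0.01 for all genes. Without mutant replicate 1 the medians were -0.14 for replication, 0.01 for mitosis, -0.08 for oxidative phosphorylation, -0.17 for glycolysis, -0.01 for ribosome biogenesis and 0.17 for interferon-stimulated genes, with turned signs for oxidative phosphorylation and ribosome biogenesis. Replication genes had 13 of 34 members higher with a median of -0.07, mitotic genes 15 of 28 with 0.02, oxidative phosphorylation genes 18 of 36 with 0.02, glycolysis genes 8 of 21 with -0.10 and ribosome biogenesis genes 17 of 27 with 0.07. The interferon-stimulated list, which pIpC acts on through double-stranded RNA sensors, had 23 of 37 members higher with a median of 0.08, which was 0.20 without control replicate 2 and -0.03 without mutant replicate 4. The list of TNF and NF-kB response genes had 15 of 26 higher with a median of 0.17. Of these 7 lists, 1 member, Gar1, stood at an unadjusted p under 0.05.

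**Figure D4:**
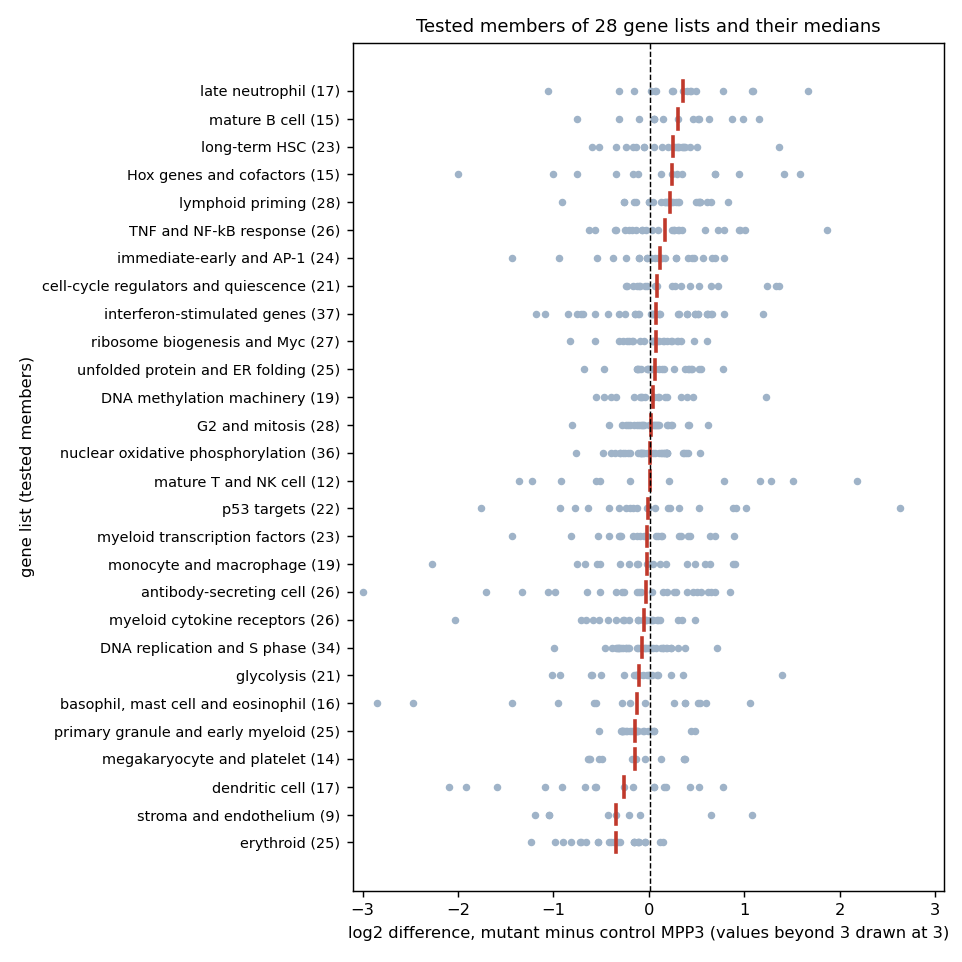
Log2 difference, mutant minus control MPP3, of the tested members (dots) of 28 gene lists, with the list median (red bar) and the median of all tested genes (dashed line at 0.01). The erythroid median of -0.34 is the lowest and the late neutrophil median of 0.36 the highest, and members of every list spread on both sides of 0.

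The RNA of antibody-secreting cells varied widely between libraries of both groups. The list's summed level was 21110, 5206 and 19900 CPM in control replicates 1 to 3 and 9712, 5343, 16900 and 40240 CPM in mutant replicates 1 to 4, mostly immunoglobulin constant genes. Jchain, the joining chain of secreted antibody, stood at 499, 133 and 419 CPM in the controls and at 56.9, 85.1, 211 and 539.6 CPM in the mutants. Prdm1, the master factor of plasma cells, stood at 41.9, 5.83 and 38.5 CPM in the controls and at 3.08, 7.89, 8.69 and 35.2 CPM in the mutants. Igkc, the kappa constant gene, stood at 5251, 726 and 3297 CPM in the controls and at 1945, 1048, 3511 and 13490 CPM in the mutants. Control replicate 2 and mutant replicates 1 and 2 held the 3 lowest values of each of these genes, and both groups held high and low libraries.

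Each B-cell clone uses 1 heavy and 1 light variable (V) segment, so segment counts describe the clonal makeup of antibody RNA. Of 68 V segments tested, 31 were higher and 37 lower in mutant MPP3, 3 and 4 of them at an unadjusted p under 0.05, against 1.44% and 0.781% of all genes. The mutants lay above the controls for 0 segments and below them for 3, against 2.23% and 2.27% of all genes. The filter asks for enough counts in as many libraries as the smaller group has. A segment held by controls alone thus enters only if all 3 controls hold it, and its groups then do not overlap. One held by mutants alone can enter without all 4 mutants, so the 0 and the 3 were not read as a result. Ighv6-3, a heavy-chain segment, stood at 26.8, 24.1 and 16.2 CPM in the controls and at 0, 1.06, 0 and 0 CPM in the mutants. It was the segment with the smallest p (adjusted p = 0.700, edgeR quasi-likelihood test). Its groups did not overlap, which its entry through the controls favours. Over the alternatives its adjusted p ran from 0.0377, with no filter on low counts, to 1. For the MPP3 difference against the mean of the other populations its adjusted p was 0.9999 in the edgeR quasi-likelihood test. For that difference it was called by limma voom (adjusted p = 0.0212) and DESeq2 (adjusted p = 0.0174). In the fit of 29 libraries its log2 difference was -6.285 in MPP3 and -2.586 ± 1.22 (SE) in LT-HSC. In ST-HSC it was -0.9973 ± 1.1 (SE) and in MPP4 0.6162 ± 1.022 (SE). Ighv1-81 stood at 0.267, 0 and 0 CPM in the controls and at 11.6, 52.4, 0 and 53.4 CPM in the mutants, so it was absent from mutant replicate 3 as from the controls. Igkv1-88 stood at 0, 0 and 1.34 CPM in the controls and at 42.7, 0, 0 and 3465 CPM in the mutants, nearly all of it in 1 library.

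The coding sequences of these 3 segments, picked from the V segments with the smallest p, are shown over their first 300 bases. They run 5' to 3' on the coding strand with the intron removed. They were read from GENCODE M21 transcripts on GRCm38. Ighv6-3 lies at chr12:114391712-114392169, Ighv1-81 at chr12:115920279-115920712 and Igkv1-88 at chr6:68862265-68863031, all on the minus strand. Capitals mark bases that differ from, or have no partner in, the closest other V segment of the same chain. That segment was Ighv6-6 for Ighv6-3 (91% identical), Ighv1-85 for Ighv1-81 (92.9%) and Igkv1-110 for Igkv1-88 (85.5% of aligned bases).
Ighv6-3: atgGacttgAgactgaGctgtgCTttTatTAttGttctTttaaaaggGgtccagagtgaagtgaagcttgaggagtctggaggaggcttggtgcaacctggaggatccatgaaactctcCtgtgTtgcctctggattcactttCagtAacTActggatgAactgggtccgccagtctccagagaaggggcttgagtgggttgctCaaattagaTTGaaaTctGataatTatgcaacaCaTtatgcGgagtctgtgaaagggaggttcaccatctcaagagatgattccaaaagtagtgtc
Ighv1-81: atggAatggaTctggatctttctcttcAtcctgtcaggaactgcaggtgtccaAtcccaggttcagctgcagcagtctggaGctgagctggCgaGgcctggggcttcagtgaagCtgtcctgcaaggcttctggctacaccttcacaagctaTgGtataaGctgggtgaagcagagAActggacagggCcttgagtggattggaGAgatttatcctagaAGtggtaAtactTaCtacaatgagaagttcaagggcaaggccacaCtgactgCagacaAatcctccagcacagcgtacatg
Igkv1-88: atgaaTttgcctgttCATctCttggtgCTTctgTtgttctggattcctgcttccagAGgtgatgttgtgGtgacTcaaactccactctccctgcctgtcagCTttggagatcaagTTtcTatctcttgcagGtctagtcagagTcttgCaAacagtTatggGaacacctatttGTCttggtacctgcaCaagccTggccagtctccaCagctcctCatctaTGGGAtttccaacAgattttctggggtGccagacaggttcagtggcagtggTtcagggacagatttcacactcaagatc
Over the whole coding sequence, 32, 25 and 55 bases of the 3 segments differ in this way, so the segments keep long runs in common with their relatives. Estimated counts share reads that fit several segments between them, and the values of single segments are uncertain to that extent.

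The makeup of the V counts differed between libraries within each group. In mutant replicate 4 Igkv1-88 held 57.7% of the kappa V counts (95% Wilson interval 57.3 to 58.1, counting error only). In control replicate 1 and mutant replicates 1, 2 and 3 the leading kappa segment was Igkv15-103, with 35.9%, 38.1%, 46.2% and 24.8%. Control replicates 2 and 3 had other leading segments, Igkv16-104 with 22.7% and Igkv10-96 with 15.5%. The same leading kappa segment was thus found in 3 mutant libraries and 1 control library. Of the heavy V counts, Ighv7-1 held 34% in control replicate 1, 0% in control replicate 2 and 2.65% in control replicate 3, and 18.5%, 34.1%, 20.1% and 12.7% in mutant replicates 1 to 4. Ighg1, the IgG1 constant gene, stood at 80.3, 125 and 0.309 CPM in the controls and at 0, 0, 0.414 and 1.52 CPM in the mutants, so 2 of the 3 controls carried it.

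**Figure D5:**
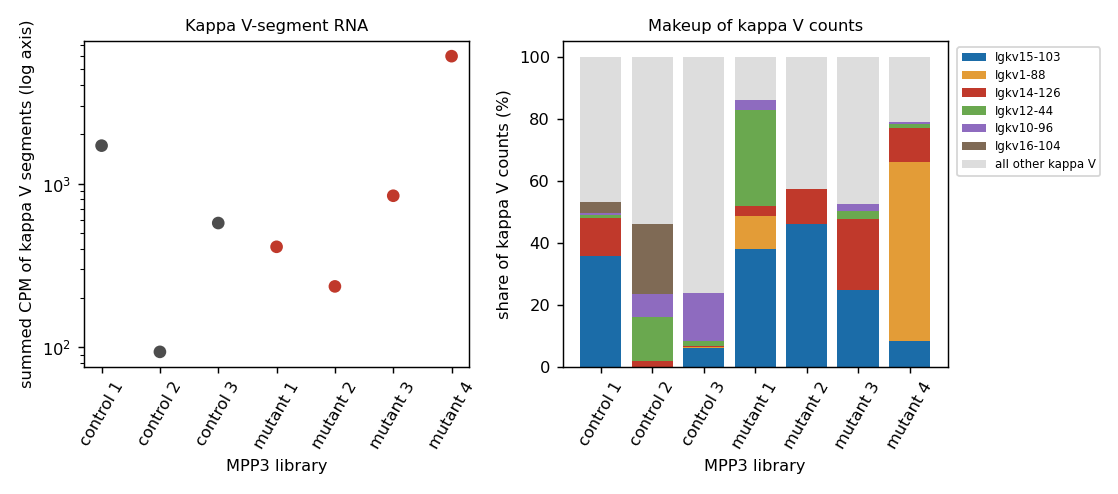
Summed CPM of kappa V segments in each MPP3 library (left, log axis) and the share of kappa V counts of 6 segments and of all others (right, percent), with controls in grey and mutants in red on the left. Igkv1-88 takes 57.7% in mutant replicate 4, and Igkv15-103 leads in control replicate 1 and mutant replicates 1 to 3.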

How the data were processed

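PolyA RNA of bone marrow populations was sequenced, per the labels. The authors deposited estimated counts per Ensembl gene; the submitters' processing notes name RSEM 1.2.12, Bowtie2 2.2.0 and GRCm38 without giving their roles. The estimated counts are whole numbers. Of 38924 identifiers 37607 were paired with a symbol. Identifiers without a symbol held 0.98% to 1.14% of MPP3 counts. Groups came from the sample titles. Genes were kept with edgeR's filterByExpr (minimum count 10, minimum total count 15) and tested with edgeR 4.0.16 in R 4.3.3, using TMM scaling, the quasi-likelihood test and Benjamini-Hochberg adjustment at 0.05. The MPP3 fit used 7 libraries. The comparison between populations used 8 groups in 29 libraries. Alternatives used limma 3.58.1 and DESeq2 1.42.0, RLE scaling, other filters, left-out libraries and added terms. The MPP3 test was also run on simulated counts. Their spread was capped and no library stood apart in them, so they do not check the test on a library like mutant replicate 1. Named genes were the 12 with the smallest p in each direction (mean above 5 CPM in at least one group, with a symbol, not immunoglobulin), a set of identity genes and the up to 4 members of each list with the smallest p, of which those at an unadjusted p under 0.05 are described. Tet2, Hlf, Rag1, Epor and Itgax were named after their values were seen. Members and lists were chosen with earlier results of these data known. Results for some genes are not reported here.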

Additional observations from a re-analysis of the deposited data

Results flagged for a closer look

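In 88 groups of 4 mutant MPP3 values, 9 had 1 library far from the other 3, by a gap, relative to their range, above Dixon's 95% critical value. For independent, normally distributed values this occurs in about 1 in 20 groups. Some genes here were chosen by small p or also belong to a list that was counted, so the 9 were not tested against that rate. In 7 of the 9 the library was mutant replicate 1. There Dnmt3a stood at 217 CPM against 89.4 to 105 CPM in the other mutants, Stau2 at 58.7 against 34.7 to 37.7 CPM, Gm12568 at 45.3 against 2.59 to 5.77 CPM and Sesn2 at 48.0 against 1.45 to 7.71 CPM. The summed levels of DNA methylation genes (2098 against 1634 to 1709 CPM), of monocyte and macrophage genes (631 against 314 to 355.5 CPM) and of cell-cycle regulators (2498 against 1976 to 2057 CPM) were also highest there. Xdh stood at 3.83 CPM in mutant replicate 3 against 1.27 to 1.41 CPM. Clec9a stood at 2.06 CPM in mutant replicate 4 against 0.725 to 0.827 CPM.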

How the results depend on the processing

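The count of genes past the threshold between mutant and control MPP3 was 0 and became 1 without mitochondrial, Gm42418 and immunoglobulin genes, 2 with no filter on low counts, 1 with a filter at 10 CPM, 2 in DESeq2 and 1 with robust empirical Bayes. It was 0 to 1 when single libraries were left out, with the 1 found without mutant replicate 1. A further 2 settings were chosen after seeing the data: without mutant replicates 1 and 4 together the count was 2, and without immunoglobulin genes 1. Outside the replicate block, each of these settings called ENSMUSG00000094062, lower in the mutants, and the setting with no filter also called Ighv6-3. For the MPP3 difference against the mean of the other populations the count of 0 became 2 in limma voom, 2 in limma voom with the described sample number taken as a random block (correlation -0.000528) and 21 in DESeq2, 16 higher and 5 lower, of which 5 are immunoglobulin genes. Log2 differences of these 21 ran from -29.8 (Rpl23a-ps3) to 33.2 (Ighv5-16), and such values cannot be taken as sizes of a change. The cause of the differing counts was not tested.

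With the replicate number as a block the MPP3 count was 1 (Ighv1-50, adjusted p = 0.0087, edgeR quasi-likelihood test). The numbers share no stated source, and deviations of same-numbered mutant and control libraries correlated by -0.09, 0.08 and 0.04, so the numbers were not taken as pairs. Of the 3 numbers, 2 correlated best with their own.

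The number of list medians above that of all genes, 14, stayed between 11 and 17. The 24 genes with the smallest p kept their direction in every setting run. They were chosen by their p in these same libraries, which favours this, so it is no check on them. Directions turned for the log2 differences of 6 genes, none past the threshold. With single libraries left out, the lowest and highest values included turned ones for Dnmt3a (-0.20 to 0.32), Mpo (-0.383 to 0.0877), Cd48 (-0.06 to 0.79), Igkc (-0.52 to 1.31) and S100a8 (-0.55 to 0.40). In the replicate block Mpo was 0.0536 and Igkc -0.26. With header set as a term Igkc was -0.0012 and S100a8 -0.32. S100a8 was -0.59 in limma voom and -0.61 with antibody-secreting cell level as a term. Without mutant replicates 1 and 4 together Dnmt3a was -0.28, Cd48 -0.40, Igkc -0.44 and Sesn2 -0.0583. With header set as a term 0 genes passed for genotype and 5 for the set itself. With the spread in MPP3, the unadjusted 95% interval of the typical gene reached about 2-fold to either side. At the adjusted threshold larger changes could be missed as well: 1146 genes differed by more than 2-fold and 0 passed.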
